A study of Sus scrofa with 6 samples.

Results

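The genes described here are 10 components of fibroblast growth factor (FGF) signalling in pig cells: the ligands FGF2 and FGF7, the receptors FGFR1, FGFR2, FGFR3 and FGFR4, and the feedback inhibitors SPRY1, SPRY2, SPRY4 and IL17RD. They were chosen by name, and a gene of the deposited FPKM table (fragments per kilobase of gene length, scaled to the depth of the library) was taken where its name was on that list. Of the 18007 genes in the table, 9 matched, 8 of them by symbol. FGFR1 is listed by its Ensembl identifier alone and was matched through a table of gene names. FGF7 had no entry of its own.

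FGF ligands bind heparan sulphate and a receptor tyrosine kinase together, and the receptor then passes the signal through docking proteins and the RAS to ERK kinase cascade. ERK activity induces inhibitors of the same cascade, among them the Sprouty proteins, so that the pathway dampens itself. FGF2 is a widely used mitogen of cultured fibroblasts and a common supplement of pluripotent stem cell media, and FGF7 is made by mesenchymal cells and acts on epithelium.

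The study compared pig embryonic fibroblasts (PEF) with porcine induced pluripotent stem cells (piPSC) made from them, by sequencing of poly-A RNA with 150-base paired ends and a kit that does not mark the strand. There were 3 fibroblast lines, PEF5, PEF7 and PEF8, grown from ear tips of fetuses at embryonic day 90 from a Large White sire and a Meishan dam. The lines piPSC5, piPSC7 and piPSC8 were made from the fibroblasts of the same number with lentiviral OSKM factors (Oct4, Sox2, Klf4 and c-Myc) under a doxycycline-inducible promoter (TetO-FUW-OSKM with FUW-M2rtTA), and colonies were picked onto mouse feeder cells in a medium named LF2i. The contents of LF2i, which could include FGF pathway agents, are not given in the sources used here, and fragments from mouse feeder cells cannot be told apart from pig fragments in the table.

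Each line gave 1 library, so there were 3 libraries in each group, and p-values measure the spread between lines. Fragment totals recovered from the steps of the FPKM values were 17836510 for PEF5, 16713472 for PEF7 and 15146576 for PEF8. The piPSC libraries were shallower, with 15050204 for piPSC5, 11892011 for piPSC7 and 11010629 for piPSC8.

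The PEF label was borne out by fibroblast markers. All 12 of 12 fibroblast markers were measured, and their summed FPKM was 7125 in PEF5, 9052 in PEF7 and 6049 in PEF8, led by VIM at 2413, COL1A1 at 2822 and COL3A1 at 1640 respectively. In the libraries labelled piPSC the sum was 470, 380 and 234, led by VIM at 208 and 249 in piPSC5 and piPSC7 and by COL3A1 at 125 in piPSC8. The part of this remaining fibroblast-type RNA in the levels described here was not tested.

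The pluripotency markers went against the name of the piPSC libraries for most genes. Of 12 markers 9 had an entry (not LIN28A, TDGF1 or DPPA4), and their summed FPKM was 5.57 in piPSC5, 3.04 in piPSC7 and 9.13 in piPSC8, against 0.170, 0.0281 and 0.378 in PEF5, PEF7 and PEF8. SOX2 (3.01, 2.49 and 0.129 FPKM in piPSC5, piPSC7 and piPSC8) and LIN28B (2.51, 0.281 and 8.90 FPKM) made up nearly all of it. POU5F1 stood at 0, 0.155 and 0.084 FPKM and NANOG at 0, 0.092 and 0 FPKM in the same libraries, and SALL4 and ESRRB were at or under 0.051 FPKM in each. The name piPSC is therefore used here as the label of 3 libraries and not as a statement of their cell type. The study reported positive alkaline phosphatase staining and Oct4 immunofluorescence for these lines. It also described low endogenous Oct4, Nanog, Sall4 and Esrrb RNA in them, and called the lines doxycycline-dependent and incompletely reprogrammed.

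Markers of other cell types were low beside the fibroblast markers. Summed FPKM in PEF5, PEF7 and PEF8 and then piPSC5, piPSC7 and piPSC8 was 0.588, 0.784, 1.49, 1.09, 2.07 and 0.449 for 8 of 10 epithelial markers, led by CLDN7 in all 3 piPSC libraries, with EPCAM at 0 in piPSC5 and piPSC7 and CDH1 at 0 in piPSC5. In the same order 7 of 8 keratinocyte markers gave 3.30, 3.47, 3.61, 5.51, 9.20 and 4.76, led by KRT10, with TP63 at 0 in all 3 piPSC libraries. The 8 of 8 chondrocyte markers gave 3.15, 12.5, 1.10, 0.739, 4.45 and 0.547, led by COMP in PEF7 and MATN3 in the piPSC libraries, and COL2A1 was at 0 in piPSC8. All of these sums were far below the fibroblast sum of the same library.

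Endothelial markers (7 of 8) summed to 8.62, 9.42, 2.87, 0.664, 1.19 and 0.0382 FPKM in that order, led by ERG in PEF5 and PEF7, with CDH5 at 0 in every library but PEF5. Leukocyte markers (6 of 8, without PTPRC and CD3E) summed to 11.3, 24.0, 17.1, 2.54, 1.24 and 3.28 FPKM, led by CD14 in the PEF libraries and CD68 in the piPSC libraries. Skeletal muscle markers (6 of 8) summed to 0.179, 0.0814, 0.771, 0.209, 14.2 and 2.56 FPKM, nearly all of the last pair being DES, and MYOD1 was at 0 in all 3 piPSC libraries. Trophoblast markers (7 of 8, without CDX2) summed to 10.2, 9.87, 30.6, 13.8, 12.6 and 22.7 FPKM, led by GATA2 in the PEF libraries and TEAD4 in the piPSC libraries. The part of these genes in the results was not tested.

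Line 8 stood apart from the other lines in its Y-linked genes, although the lines are described as male. DDX3Y was at 25.3 FPKM in PEF8 (3439 fragments) and 42.5 FPKM in piPSC8 (4207 fragments), and at 0 in the other 4 libraries. EIF1AY was likewise measured only in PEF8 (11.7 FPKM) and piPSC8 (13.3 FPKM). Each tested member is therefore given with line 8 and without both of its libraries.

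Of the 9 genes with an entry, 8 had a mean FPKM of at least 0.5 and were tested, and FGFR4 was not. With limma on log2(FPKM + 1), 5 of the 8 passed both thresholds of a call (adjusted p under 0.05, change of 2-fold or more), against 36.8% of all 12428 genes tested. IL17RD was the 1 called higher in piPSC, where the background was 20.2%, and FGF2, FGFR2, FGFR3 and SPRY4 were the 4 called lower, where it was 16.7%. The same 5 were the members whose groups did not overlap, against 64.1% of all genes tested (37.3% higher and 26.8% lower), so that non-overlap was about as frequent among the members as among all genes. No difference from the background is read from counts over 8 genes. A lower level can come from fewer cells of a type or from less RNA per cell, and these cannot be told apart here.

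Over all genes tested, 2505 were called higher and 2070 lower, so that 54.8% of the calls were higher, and the median log2 fold change was 0.20. That split depended on the scaling: 42.8% of calls were higher after rescaling to the median ratio (1884 higher, 2516 lower; median −0.01) and 41.4% after rescaling to equal sums (1986 higher, 2815 lower; median −0.06). The direction of every tested member was the same under each scaling.

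**Figure D1:**
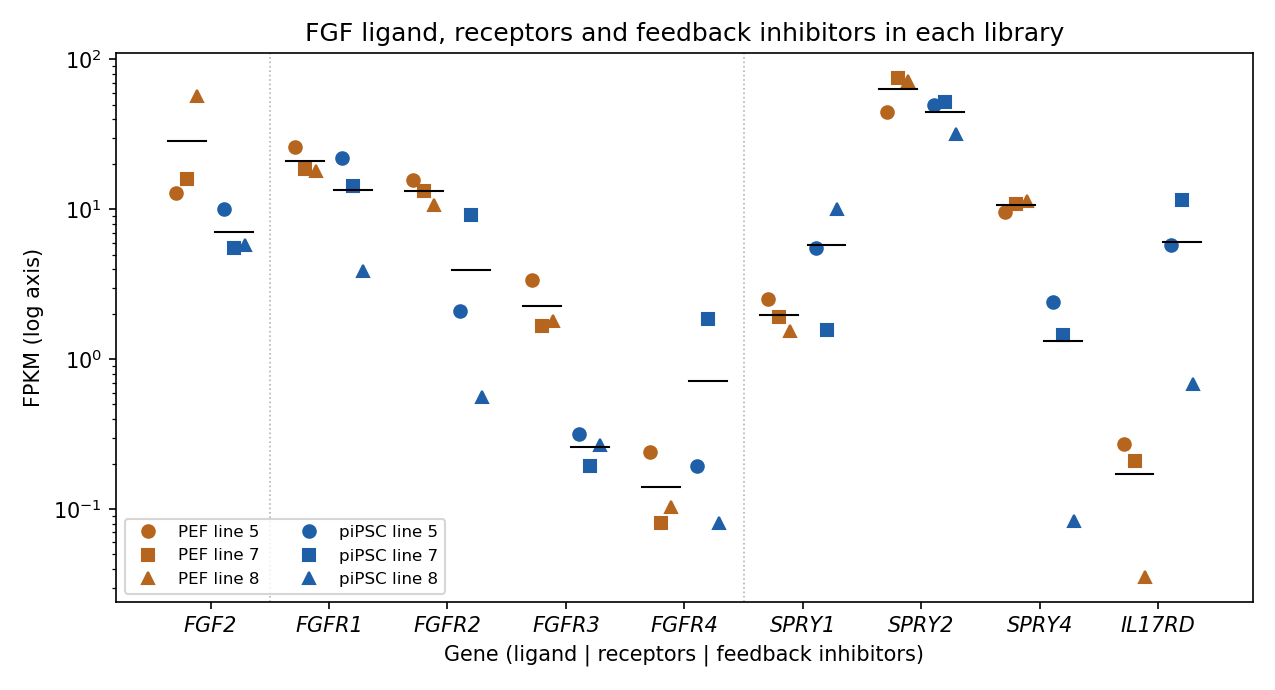
FPKM on a log axis of the 9 members with an entry, 1 point per library (brown for PEF, blue for piPSC, marker shape for the line), with a horizontal bar at each group mean and no error bars. SPRY4 lay between 9.64 and 11.5 FPKM in PEF and between 0.084 and 2.42 FPKM in piPSC, whereas the groups overlapped for FGFR1, FGFR4, SPRY1 and SPRY2.

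FGF2, a secreted mitogen kept in the matrix by heparan sulphate, lies on chromosome 8 from 101282308 to 101343916 on the minus strand of Sscrofa11.1 (ENSSSCG00000036213). It stood at 12.8, 15.9 and 57.1 FPKM in PEF5, PEF7 and PEF8 (685, 797 and 2599 fragments) and at 10.0, 5.51 and 5.80 FPKM in piPSC5, piPSC7 and piPSC8 (454, 197 and 192 fragments). PEF8 was far above the other fibroblast lines, and all 3 piPSC libraries lay below the lowest PEF library, piPSC5 only just. The mean was 28.6 ± 24.7 FPKM in PEF and 7.11 ± 2.53 FPKM in piPSC (SD, n = 3 each), and FGF2 fell by 1.60 on the log2 scale (SE 0.56, limma adjusted p = 0.0492). By line, piPSC held 78.5% of the PEF level in line 5, 34.7% in line 7 and 10.2% in line 8.

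The FGF2 call was lost in 5 of the 6 fits that left out 1 library: the adjusted p was 0.0668 without PEF7, 0.0691 without piPSC5, 0.123 without piPSC7 and 0.113 without piPSC8, and without PEF8 the log2 fold change was −0.95 (adjusted p = 0.0498), under 2-fold. It was also lost with line as a block (adjusted p = 0.0724), with no filter on low values (0.0837), with no intensity trend (0.0535) and with voom on recovered fragments (0.0906), and without both libraries of line 8 the log2 fold change was −0.85 (adjusted p = 0.0967). NUDT6, a nudix hydrolase gene on the plus strand from 101241582 to 101284334, overlaps FGF2 by 2027 bases, and without strand the fragments of the pair cannot be told apart there. NUDT6 had 11.5, 20.6 and 66.6 FPKM in the PEF libraries and 7.33, 6.26 and 5.94 FPKM in the piPSC libraries. It was likewise highest in PEF8, and it fell by 1.82 on the log2 scale (SE 0.58, limma adjusted p = 0.0365).

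FGF7, the keratinocyte growth factor, was not measured on its own. The RefSeq gene FGF7 (chromosome 1 from 122215878 to 122278705, minus strand) lies almost wholly within the span of the entry named GALK2, a galactokinase gene (ENSSSCG00000004651, 122215882 to 122526981, minus strand), with 62824 bases in common. RefSeq places GALK2 itself from 122370616 to 122542287, so that the entry spans FGF7 and most of GALK2. The lower end of the entry, at 122215882, lies next to the 3′ end of FGF7 at 122215878. Which exons of FGF7 beyond that end were counted, if any, could not be told without the annotation used. Its counted length of 7054 bases compares with 5243 exon bases of GALK2 and 2167 of FGF7 in RefSeq.

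The entry named GALK2 stood at 57.4, 62.4 and 45.5 FPKM in PEF5, PEF7 and PEF8 (7218, 7361 and 4862 fragments) and at 3.01, 3.92 and 6.32 FPKM in piPSC5, piPSC7 and piPSC8 (320, 329 and 491 fragments). All PEF libraries were high and all piPSC libraries low, with no overlap. Its mean was 55.1 ± 8.69 FPKM in PEF and 4.42 ± 1.71 FPKM in piPSC (SD, n = 3 each), and it fell by 3.41 on the log2 scale (SE 0.26, limma adjusted p = 0.000319). Whether any of this belongs to FGF7 cannot be told, and the entry is not counted among the members. FAM227B, on the plus strand, overlaps FGF7 by 62828 bases and stood at 1.87, 1.31 and 2.46 FPKM in the PEF libraries and 0.509, 1.70 and 0.199 FPKM in the piPSC libraries, and without strand its fragments there cannot be told apart from those of the other strand.

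RefSeq promoters were found for all 10 members, as the 250 bases before to 50 bases after each gene start on Sscrofa11.1. The windows of FGF2 and SPRY4 are shown because these are the ligand and the Sprouty gene that were called, both lower in piPSC. They are chr8:101344035-101344334 and chr2:143891231-143891530, each on the minus strand and written 5′ to 3′ along the gene, with a match to the AP-1 letters in capitals.
FGF2: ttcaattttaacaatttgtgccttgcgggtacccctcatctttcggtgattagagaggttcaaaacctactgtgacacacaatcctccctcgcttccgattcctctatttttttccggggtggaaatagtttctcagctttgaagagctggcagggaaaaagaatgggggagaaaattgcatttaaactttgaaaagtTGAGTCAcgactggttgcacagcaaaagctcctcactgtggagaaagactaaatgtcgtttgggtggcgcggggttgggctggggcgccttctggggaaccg
SPRY4: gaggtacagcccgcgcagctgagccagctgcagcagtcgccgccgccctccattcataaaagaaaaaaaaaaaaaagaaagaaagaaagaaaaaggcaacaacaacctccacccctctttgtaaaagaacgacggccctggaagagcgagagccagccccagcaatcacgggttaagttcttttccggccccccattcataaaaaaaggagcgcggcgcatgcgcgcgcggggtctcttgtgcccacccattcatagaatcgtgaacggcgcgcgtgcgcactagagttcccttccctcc

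Each window was searched on both strands for AP-1 (TGANTCA), RUNX (TGTGGT), TEAD (GGAATG), octamer (ATGCAAAT) and ETS (CCGGAAGT) letters. FGF2 was the 1 of 10 members with a match, TGAGTCA on the gene strand with its first base 52 bases before the gene start, and AP-1 letters occurred in 6.07% of all 19556 promoters. The other letters, found in 16.1%, 11.8%, 1.39% and 4.68% of promoters in the order given, were not in these windows of the members. A match is a description of the sequence and was not tested as a binding site. The GC content was 47.7% for FGF2 and 55.0% for SPRY4, against a median of 58.7% over all promoters. The RefSeq start of FGF2 lay 168 bases from the start in the table, and that of SPRY4 5 bases. For FGFR1, FGFR2, SPRY1 and SPRY2 the distance was 528, 4413, 2623 and 3326 bases. This is more than the 300 bases of a window, so the lack of a match there does not bear on their starts in the table.

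Among the receptors, FGFR2 and FGFR3 were lower in piPSC and FGFR1 was the most abundant in every library. FGFR1, a receptor widely expressed in mesenchymal cells (ENSSSCG00000015815, chromosome 15 from 48053367 to 48106860, plus strand), stood at 26.3, 18.5 and 18.0 FPKM in PEF5, PEF7 and PEF8 (3141, 2077 and 1825 fragments). The level was 21.9, 14.4 and 3.90 FPKM in piPSC5, piPSC7 and piPSC8 (2216, 1150 and 288 fragments). piPSC5 lay above PEF7 and PEF8, so the groups overlapped, and piPSC8 was far below the other 5 libraries. The mean was 20.9 ± 4.63 FPKM in PEF and 13.4 ± 9.07 FPKM in piPSC (SD, n = 3 each). The fitted difference was −0.85 on the log2 scale (SE 0.55, limma adjusted p = 0.233) and FGFR1 was not called, nor was it in any of the 16 alternatives (adjusted p 0.091 to 0.558). Without piPSC8 the log2 fold change was −0.20, and without both libraries of line 8 it was −0.29 (adjusted p = 0.454).

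FGFR2, whose isoforms differ between epithelial and mesenchymal cells (ENSSSCG00000010698, chromosome 14 from 131181713 to 131289414, minus strand), stood at 15.8, 13.3 and 10.7 FPKM in PEF5, PEF7 and PEF8 (1414, 1117 and 817 fragments). Levels of 2.09, 9.19 and 0.561 FPKM were found in piPSC5, piPSC7 and piPSC8 (158, 549 and 31 fragments). The groups did not overlap, but piPSC7 lay near the PEF libraries and far above the other piPSC libraries. The mean was 13.3 ± 2.52 FPKM in PEF and 3.95 ± 4.61 FPKM in piPSC (SD, n = 3 each), and FGFR2 fell by 1.95 on the log2 scale (SE 0.64, limma adjusted p = 0.0418). By line, piPSC held 13.2% of the PEF level in line 5, 69.1% in line 7 and 5.22% in line 8. The splice forms of FGFR2 were not analysed here, and their regulators ESRP1 and ESRP2 were at or under 0.156 FPKM in every library.

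The FGFR2 call was lost in 5 of the 6 fits that left out 1 library, at an adjusted p of 0.115 without PEF5, 0.102 without PEF7, 0.0804 without PEF8, 0.114 without piPSC5 and 0.0802 without piPSC8, whereas without piPSC7 the log2 fold change was −2.69 (adjusted p = 0.00408). It was also lost with a pseudocount of 0.1 (adjusted p = 0.0551), with no filter on low values (adjusted p = 0.0742), and without both libraries of line 8 (log2 fold change −1.47, adjusted p = 0.111).

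FGFR3, a receptor best known from growth plate cartilage (ENSSSCG00000030827, chromosome 8 from 879207 to 895912, plus strand), stood at 3.37, 1.66 and 1.79 FPKM in PEF5, PEF7 and PEF8 (366, 169 and 165 fragments). In piPSC5, piPSC7 and piPSC8 it stood at 0.316, 0.193 and 0.268 FPKM (29, 14 and 18 fragments). PEF5 was the highest, and the piPSC libraries were all low and close to each other. The mean was 2.27 ± 0.951 FPKM in PEF and 0.259 ± 0.062 FPKM in piPSC (SD, n = 3 each), and FGFR3 fell by 1.34 on the log2 scale (SE 0.27, limma adjusted p = 0.00684). In piPSC its level was 9.39%, 11.6% and 15.0% of the PEF level in lines 5, 7 and 8, a larger change than the fitted value, since adding 1 to values this low compresses it. The call held in all 16 alternatives (adjusted p 0.00438 to 0.0248), and without both libraries of line 8 the log2 fold change was −1.44 (adjusted p = 0.0248).

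FGFR4, a receptor prominent in liver and the partner of KLB there (ENSSSCG00000014047, chromosome 2 from 80841543 to 80853791, minus strand), stood at 0.239, 0.0806 and 0.104 FPKM in PEF5, PEF7 and PEF8 (19, 6 and 7 fragments). The piPSC5, piPSC7 and piPSC8 libraries held 0.194, 1.87 and 0.0816 FPKM (13, 99 and 4 fragments). piPSC7 was high and the other 5 libraries were low, with the groups overlapping. In line 7 the piPSC level was 23.2 times that of PEF (95% interval 10.3 to 64.7, for counting error only). FGFR4 fell under the filter, and with no filter the adjusted p was 0.41.

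The makeup of the receptor pool, taken as shares of summed FPKM and thus per gene length, differed more among the piPSC libraries than among the PEF libraries. FGFR1 made up 57.5%, 55.2% and 58.7% of the pool in PEF5, PEF7 and PEF8, and FGFR2 made up 34.6%, 39.6% and 35.1%. In piPSC5 and piPSC8 the share of FGFR1 lay above this range, at 89.4% and 81.1%, with FGFR2 at 8.51% and 11.7%. In piPSC7 FGFR1 and FGFR2 had shares within those of PEF or close to them, at 56.2% and 35.8%, but FGFR4 held 7.28% there against at most 1.70% in the other libraries. FGFR3 held 0.753% in piPSC7, its lowest share, against 4.94% to 7.38% in PEF, 1.29% in piPSC5 and 5.58% in piPSC8. The summed FPKM of the receptors was 45.6, 33.6 and 30.6 in the PEF libraries and 24.6, 25.7 and 4.81 in piPSC5, piPSC7 and piPSC8, so the pool of piPSC8 was the smallest.

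**Figure D2:**
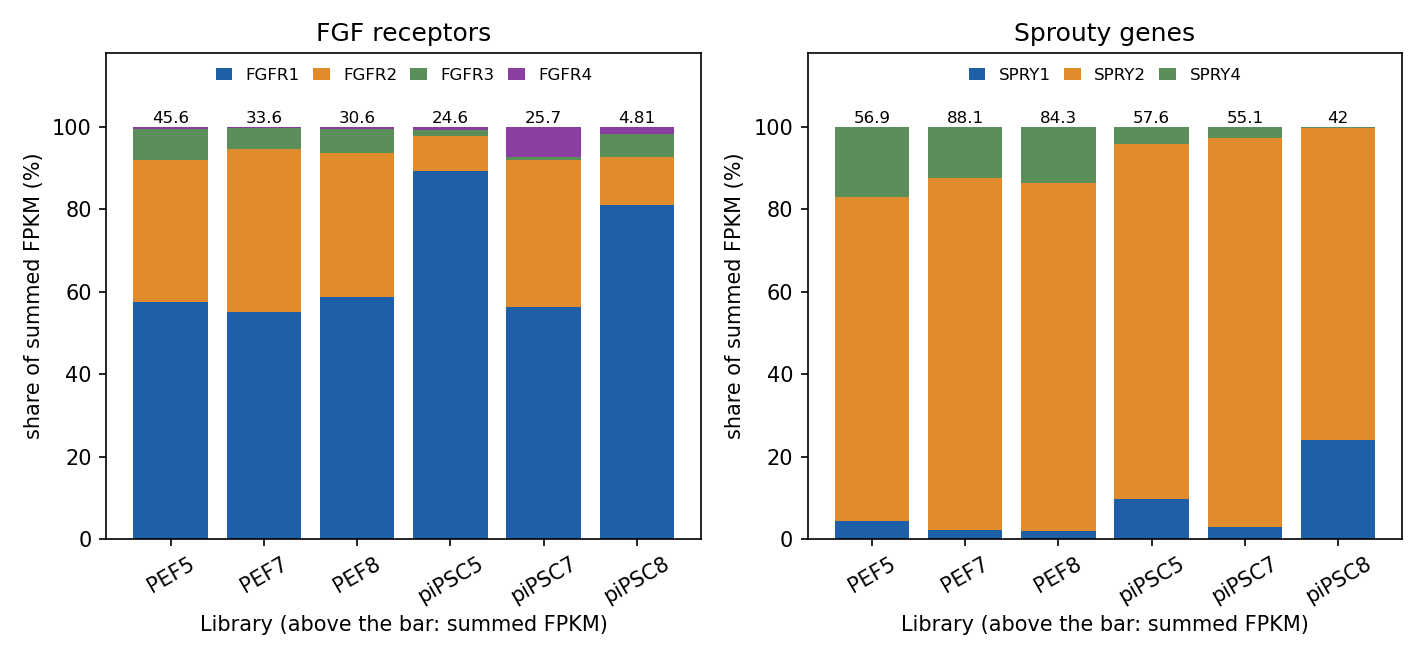
Shares in percent of the summed FPKM of FGFR1 to FGFR4 (left) and of SPRY1, SPRY2 and SPRY4 (right), 1 stacked bar per library with the summed FPKM above it and no error bars. FGFR2 took 34.6% to 39.6% of the receptor pool in PEF and 35.8% in piPSC7, but 8.51% in piPSC5 and 11.7% in piPSC8, and SPRY2 took 75.7% to 94.5% of the Sprouty pool over the 6 libraries.

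Among the feedback inhibitors SPRY4 was lower and IL17RD higher in piPSC, and SPRY1 and SPRY2 were not called. SPRY4, a Sprouty protein that inhibits signalling from receptor tyrosine kinases to ERK (ENSSSCG00000036322, chromosome 2 from 143877340 to 143891285, minus strand), stood at 9.64, 10.9 and 11.5 FPKM in PEF5, PEF7 and PEF8 (929, 985 and 938 fragments). In piPSC5, piPSC7 and piPSC8 it stood at 2.42, 1.46 and 0.084 FPKM (197, 94 and 5 fragments). The PEF libraries were high and close to each other, and the piPSC libraries were all lower, with piPSC8 near 0. The mean was 10.7 ± 0.934 FPKM in PEF and 1.32 ± 1.18 FPKM in piPSC (SD, n = 3 each), and SPRY4 fell by 2.48 on the log2 scale (SE 0.42, limma adjusted p = 0.00381).

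By line, piPSC held 25.1% of the PEF level of SPRY4 in line 5, 13.4% in line 7 and 0.733% in line 8. The call held in all 16 alternatives (adjusted p 0.00149 to 0.0194), and without both libraries of line 8 the log2 fold change was −1.95 (adjusted p = 0.00949). The antisense entries named SPRY4-IT1 within the gene held at most 3 fragments in any library.

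IL17RD, also called Sef, a membrane protein that binds FGF receptors and restrains ERK signalling (ENSSSCG00000011463, chromosome 13 from 38939402 to 39006690, minus strand), stood at 0.270, 0.208 and 0.0354 FPKM in PEF5, PEF7 and PEF8 (18, 13 and 2 fragments). Its level was 5.75, 11.6 and 0.681 FPKM in piPSC5, piPSC7 and piPSC8 (323, 516 and 28 fragments). All PEF libraries were low, and piPSC5 and piPSC7 were far above piPSC8, which itself lay above every PEF library. The mean was 0.171 ± 0.122 FPKM in PEF and 6.02 ± 5.48 FPKM in piPSC (SD, n = 3 each), and IL17RD rose by 2.16 on the log2 scale (SE 0.70, limma adjusted p = 0.0384). Relative to the PEF library of its line, the FPKM was 21.3 times as high in piPSC5 (95% interval 13.2 to 36.3, for counting error only), 55.8 times in piPSC7 (32.3 to 105) and 19.3 times in piPSC8 (4.86 to 167).

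The IL17RD call was lost in 5 of the 6 fits that left out 1 library, at an adjusted p of 0.0875 without PEF5, 0.0906 without PEF7, 0.0986 without PEF8, 0.111 without piPSC5 and 0.0836 without piPSC7, whereas without piPSC8 the log2 fold change was 2.98 (adjusted p = 0.00235). It was also lost with no filter on low values (adjusted p = 0.0685) and with voom on recovered fragments (log2 fold change 4.78, adjusted p = 0.0517), and it held without both libraries of line 8 (2.90, adjusted p = 0.00788).

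**Figure D3:**
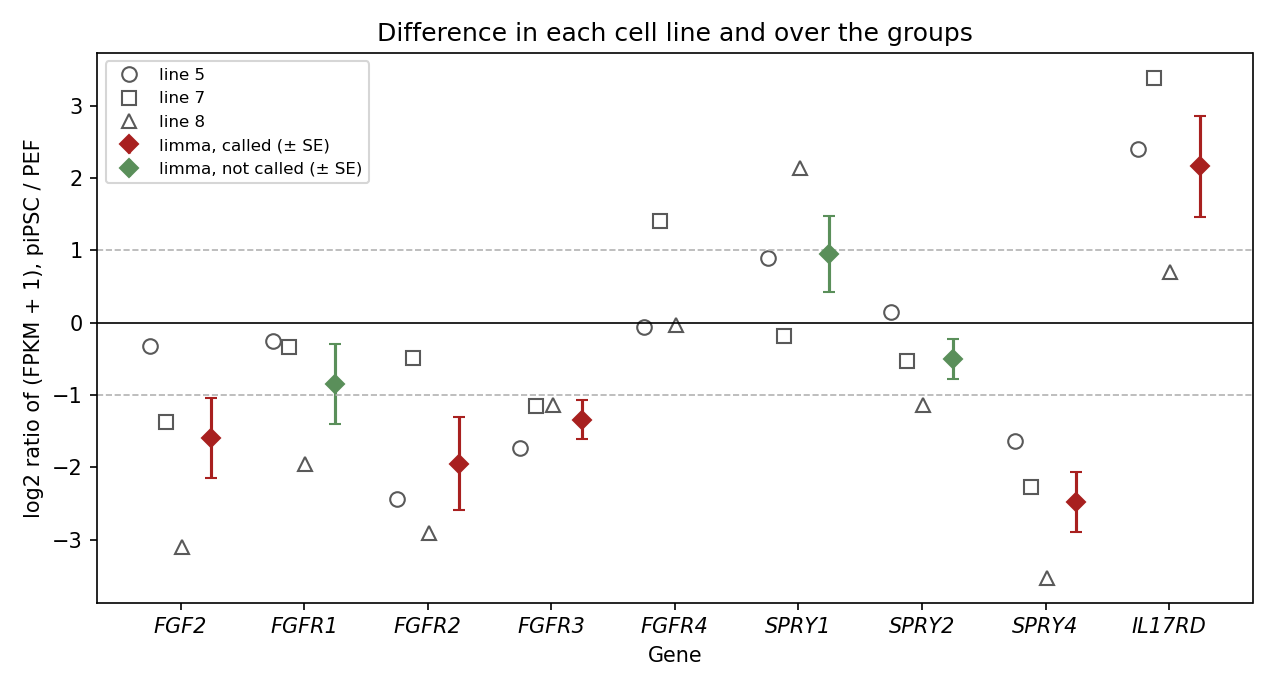
Log2 ratio of (FPKM + 1), piPSC against PEF of the same line, for the 9 members with an entry (open markers, 1 per line), beside the limma log2 fold change with its SE for the 8 tested (diamonds, red where called and green where not); dashed lines mark 2-fold. All 3 lines were below 0 for FGF2, FGFR1, FGFR2, FGFR3 and SPRY4 and above 0 for IL17RD, and FGFR4, SPRY1 and SPRY2 had lines on both sides.

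SPRY1, a Sprouty protein needed in kidney development (ENSSSCG00000009083, chromosome 8 from 100854658 to 100861157, minus strand), stood at 2.51, 1.91 and 1.53 FPKM in PEF5, PEF7 and PEF8 (218, 155 and 113 fragments). In piPSC5, piPSC7 and piPSC8 it stood at 5.55, 1.57 and 10.1 FPKM (406, 91 and 542 fragments). piPSC5 and piPSC8 were above all PEF libraries and piPSC7 was among them. The mean was 1.99 ± 0.494 FPKM in PEF and 5.75 ± 4.28 FPKM in piPSC (SD, n = 3 each), a fitted difference of 0.95 on the log2 scale (SE 0.52, limma adjusted p = 0.166), and SPRY1 was not called. Without piPSC7 it was called higher (log2 fold change 1.53, adjusted p = 0.0134), and without both libraries of line 8 the log2 fold change was 0.36 (adjusted p = 0.584). SPRY1 lies 421150 bases from FGF2 on the same strand of chromosome 8, with 1 other gene of the table wholly between them, and in line 8 SPRY1 was 6.60 times its PEF level (95% interval 5.38 to 8.15, for counting error only) where FGF2 was 10.2% of it.

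SPRY2, a Sprouty protein that inhibits ERK signalling downstream of FGF receptors (ENSSSCG00000009482, chromosome 11 from 52154493 to 52155440, minus strand), stood at 44.7, 75.3 and 71.3 FPKM in PEF5, PEF7 and PEF8 (756, 1193 and 1024 fragments). In piPSC5, piPSC7 and piPSC8 it stood at 49.6, 52.1 and 31.8 FPKM (708, 587 and 332 fragments). piPSC5 and piPSC7 lay between PEF5 and the other PEF libraries, so the groups overlapped, and piPSC8 was the lowest. The mean was 63.8 ± 16.6 FPKM in PEF and 44.5 ± 11 FPKM in piPSC (SD, n = 3 each), a fitted difference of −0.51 on the log2 scale (SE 0.28, limma adjusted p = 0.167). SPRY2 was not called in any of the 16 alternatives (adjusted p 0.0444 to 0.621), the lowest, with libraries rescaled to equal sums, at a log2 fold change of −0.83, and without both libraries of line 8 the log2 fold change was −0.19 (adjusted p = 0.621). Its entry is 948 bases long against a RefSeq gene span of 5072 bases, which bears on its level per length beside that of other genes.

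SPRY2 was the most abundant of the members in all 6 libraries on the FPKM scale. It made up 78.6%, 85.5% and 84.6% of the summed FPKM of SPRY1, SPRY2 and SPRY4 in PEF5, PEF7 and PEF8 and 86.2%, 94.5% and 75.7% in piPSC5, piPSC7 and piPSC8. SPRY4 held 16.9%, 12.4% and 13.6% in the PEF libraries and 4.20%, 2.65% and 0.20% in the piPSC libraries, below PEF in each. SPRY1 held 4.42%, 2.17% and 1.82% in the PEF libraries and 9.64%, 2.86% and 24.1% in the piPSC libraries, so per gene length it was above SPRY4 in piPSC5 and piPSC8 and below it in the PEF libraries. In piPSC7 SPRY1 and SPRY4 were level, with 91 and 94 fragments (11.8% and 12.2% of the fragments of the pool). The summed FPKM was 56.9, 88.1 and 84.3 in PEF and 57.6, 55.1 and 42.0 in piPSC. In fragments, which are not per length, SPRY2 held a mean of 46.7% in PEF and 55.9% in piPSC.

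The order of the members by FPKM had SPRY2 first and FGFR1 second in PEF5, PEF7, piPSC5 and piPSC7. In PEF8 FGF2 was second, at 57.1 FPKM against 71.3 FPKM for SPRY2, and in piPSC8 SPRY1 was second at 10.1 FPKM. FGF2, FGFR1 and FGFR2 lay close together in PEF7, at 15.9, 18.5 and 13.3 FPKM, and their order changed between the PEF lines. IL17RD was last or next to last in the PEF libraries and followed SPRY2 and FGFR1 in piPSC7.

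**Figure D4:**
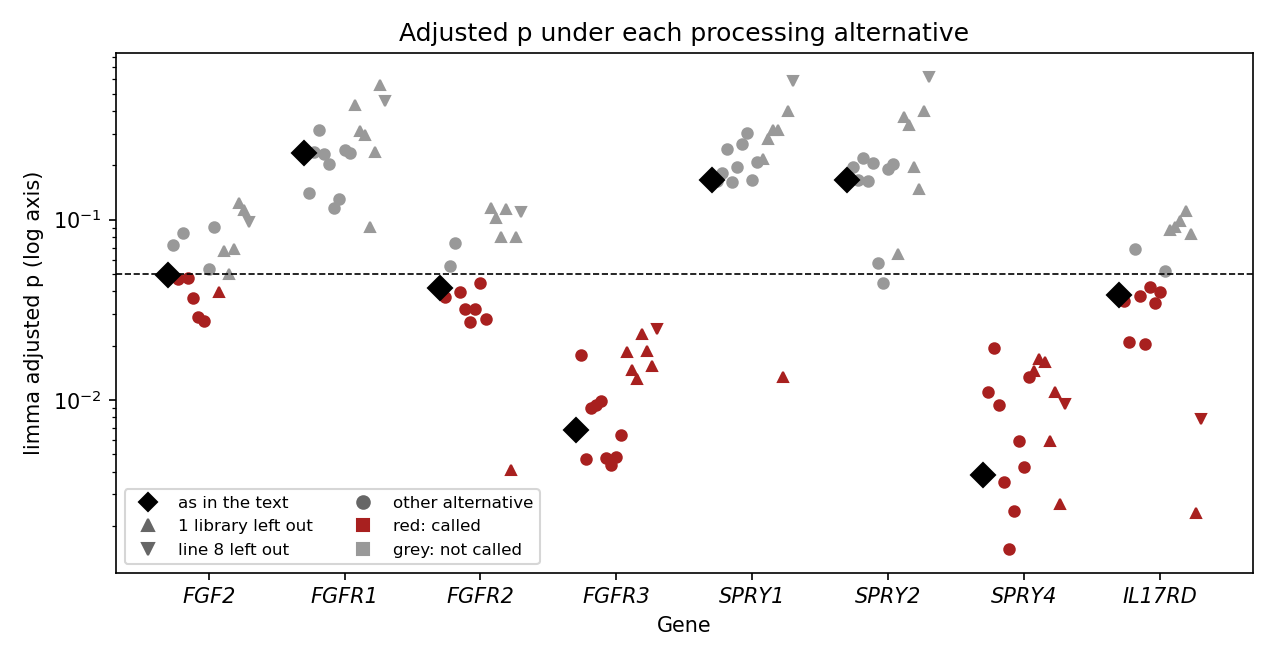
Limma adjusted p on a log axis of the 8 tested members, 1 marker per setting (black diamond for the fit described, triangles for fits that leave out libraries, circles for other alternatives; red where called, grey where not), with a dashed line at 0.05. FGFR3 and SPRY4 were called in all of 16 alternatives, IL17RD in 9, FGFR2 in 8, FGF2 in 6, SPRY1 in 1, and FGFR1 and SPRY2 were not called.

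The genes with the most similar pattern were sought for FGF2, FGFR2 and SPRY4, by the Euclidean distance between centred log2(FPKM + 1) values over the 6 libraries, among 11384 genes. These had the largest log2 fold change in size of their role in the fit with a pseudocount of 1 and all 6 libraries. FGFR3 exceeded FGFR2 with a pseudocount of 0.1 (−2.67 against −2.47), with voom (−3.06 against −2.53) and without piPSC8 (−1.35 against −1.33). IL17RD exceeded SPRY4 in size with a pseudocount of 0.1 (3.92 against −3.58), with voom (4.78 against −3.81), without piPSC8 (2.98 against −2.0) and without both libraries of line 8 (2.90 against −1.95). For FGF2 the nearest were PDXK (distance 0.594) and SNAI2 (0.609). For FGFR2 they were S100A11 (0.534) and FMNL3 (0.545), and for SPRY4 they were MANBA (0.446) and IRF2BPL (0.463).

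The other genes of the pathway were taken from 8 lists of 93 genes in all, of which 87 had an entry and 69 were tested. Of these 69, 5 were called higher and 21 lower, where 20.2% of all genes tested were called higher and 16.7% lower. Their median log2 fold change was −0.36 against 0.20 for all genes tested, and the counts of each list stand beside the same background. After rescaling to the median ratio 3 were called higher and 24 lower, where 1884 of all 12428 genes tested were called higher and 2516 lower. The median was then −0.60 against −0.01 for all genes. Of 16 other FGF ligands 12 had an entry and only FGF9 and FGF22 passed the filter on low values, and neither was called. Their median log2 fold change of −0.09 had no stable sign, lying between −0.50 with voom and 0.05 without piPSC7, at −0.33 without piPSC8, −0.17 without PEF7, −0.03 without PEF8, 0.0031 without piPSC5 and 0.02 with quantile normalization. FGF9, a ligand of FGFR3, stood at 1.01, 0.805 and 1.23 FPKM in PEF5, PEF7 and PEF8 and at 0.213, 0.215 and 3.67 FPKM in piPSC5, piPSC7 and piPSC8 (limma adjusted p = 0.914). FGF22 stood at 1.36, 1.06 and 1.46 FPKM in PEF and at 1.56, 1.24 and 0.667 FPKM in piPSC (limma adjusted p = 0.735). FGF2 was thus at a higher FPKM than each of these other ligands in every library.

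The coreceptors and carriers, which hold FGFs at the cell surface or in the matrix, had 11 of 15 genes tested, with 1 called higher and 6 lower and a median of −1.79 (−0.91 with no filter on low values). The syndecans SDC2 and SDC4, heparan sulphate proteoglycans of the cell surface, stood at 72.0 ± 13.5 and 103 ± 10.0 FPKM in PEF and at 2.51 ± 2.12 and 3.75 ± 1.08 FPKM in piPSC. They fell by 4.59 and 4.47 on the log2 scale (limma adjusted p = 0.000877 and 0.000104). GPC1, a glypican, fell by 3.77, from 35.1 ± 8.29 to 1.94 ± 1.69 FPKM (adjusted p = 0.00106). KLB, a coreceptor of endocrine FGFs, rose by 1.17, from 0.0509 ± 0.0183 to 1.38 ± 0.327 FPKM (adjusted p = 0.00604). FGFR4, its partner in liver, was above 1 FPKM in piPSC7 alone, and FGFR1 was above FGFR4 in every library. The number called lower was 4 without PEF5, without PEF7 or with a pseudocount of 0.1, and KLB was not tested at a mean FPKM of at least 1.

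Of 11 heparan sulphate enzymes 9 were tested and 3 were called lower, with a median of −0.29 (−0.45 without PEF8, −0.56 with median ratio rescaling and −0.62 with equal sums). The sulphatases SULF1 and SULF2, which remove sulphate groups from heparan sulphate outside the cell, fell by 3.27 and 3.00 (limma adjusted p = 0.00666 and 0.00735), from 77.9 ± 57.9 to 5.47 ± 1.47 FPKM and from 32.2 ± 11.2 to 4.0 ± 4.18 FPKM. EXT1, a polymerase of heparan sulphate, fell by 1.22, from 44.4 ± 11.2 to 18.2 ± 1.40 FPKM (adjusted p = 0.00349).

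All 12 docking and adaptor genes were tested, with 2 called higher and 1 lower, and the median of 0.17 lay near that of all genes (0.08 without PEF7, −0.09 with median ratio rescaling and −0.15 with equal sums). CBL, a ubiquitin ligase of activated receptors, rose by 1.28, from 1.91 ± 0.538 to 6.02 ± 0.980 FPKM (limma adjusted p = 0.00456), and GAB1, a docking protein, rose by 1.24, from 6.71 ± 1.89 to 17.5 ± 5.85 FPKM (adjusted p = 0.0138), just under 2-fold with median ratio rescaling. SHC1, an adaptor that links receptors to RAS, fell by 2.05, from 59.6 ± 6.20 to 13.6 ± 0.262 FPKM (adjusted p = 0.000246).

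All 11 genes of the RAS to ERK cascade were tested, with a median of −0.14 (−0.07 without PEF7, −0.08 without PEF8, −0.05 without piPSC8, −0.40 with median ratio rescaling and −0.46 with equal sums). KSR1, a scaffold of the cascade, fell by 2.51, from 11.4 ± 4.92 to 1.26 ± 1.10 FPKM (limma adjusted p = 0.00487), and was the 1 called lower. MAPK3, which encodes the kinase ERK1 and was chosen with its values already seen, was at −1.12 on the log2 scale (limma adjusted p = 0.0619) and was called lower with line as a block (adjusted p = 0.0126) and after both rescalings.

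Of 12 other feedback inhibitors 11 were tested and 4 were called lower, with a median of −0.50 (−0.30 without PEF5 and −0.96 with equal sums). With line as a block 3 were called lower, since SPRED1 was lost (adjusted p = 0.0734). SPRED2, a Sprouty-related protein likewise chosen with its values already seen, lay the other way, at 8.38 ± 0.769 FPKM in PEF and 17.2 ± 0.546 FPKM in piPSC. Its log2 fold change of 0.96 (limma adjusted p = 0.00275) was just under 2-fold, and it was called higher in 4 of the 16 alternatives. ERRFI1, an inhibitor of the EGF receptor, fell by 3.03, from 110 ± 25.5 to 15.7 ± 12.7 FPKM (limma adjusted p = 0.00644), and SPRED3, of the SPRED family, fell by 1.46, from 4.28 ± 0.614 to 0.922 ± 0.260 FPKM (adjusted p = 0.00235). DUSP5, a nuclear phosphatase of ERK, fell by 1.65, from 5.82 ± 2.64 to 1.18 ± 1.02 FPKM (adjusted p = 0.0211). The DUSP5 call was lost without PEF5 (adjusted p = 0.0727), PEF7 (0.0714), piPSC5 (0.0699) or piPSC8 (0.0551), and the number called lower was 2 without PEF5, piPSC5 or piPSC8.

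Of 14 genes that ERK signalling is known to induce 13 were tested, with 1 called higher and 6 lower and a median of −1.37 (−0.87 without piPSC8). IER3, an immediate early gene, fell by 5.93, from 833 ± 215 to 13.6 ± 8.08 FPKM (limma adjusted p = 0.000217). The ephrin receptor EPHA2 fell by 3.99, from 25.5 ± 9.42 to 0.687 ± 0.631 FPKM (adjusted p = 0.00054). The ETS factor ETV4 fell by 3.26, from 83.2 ± 4.11 to 9.08 ± 6.45 FPKM (adjusted p = 0.00157). EGR2, an early growth response factor, rose by 2.00, from 0.834 ± 0.633 to 7.44 ± 6.29 FPKM (adjusted p = 0.0228), and its call was lost without PEF5 (adjusted p = 0.0655), PEF8 (0.0732) or piPSC5 (0.055). The number called lower was 4 without PEF5 or piPSC8 and with no filter on low values. Another 6 of the tested genes were not called, namely ETV1, ETV5, EGR1, FOS, PHLDA1 and EPHA4. Their log2 fold changes were −1.17, 0.36, −0.11, 0.34, −1.54 and −0.90 in that order.

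**Figure D5:**
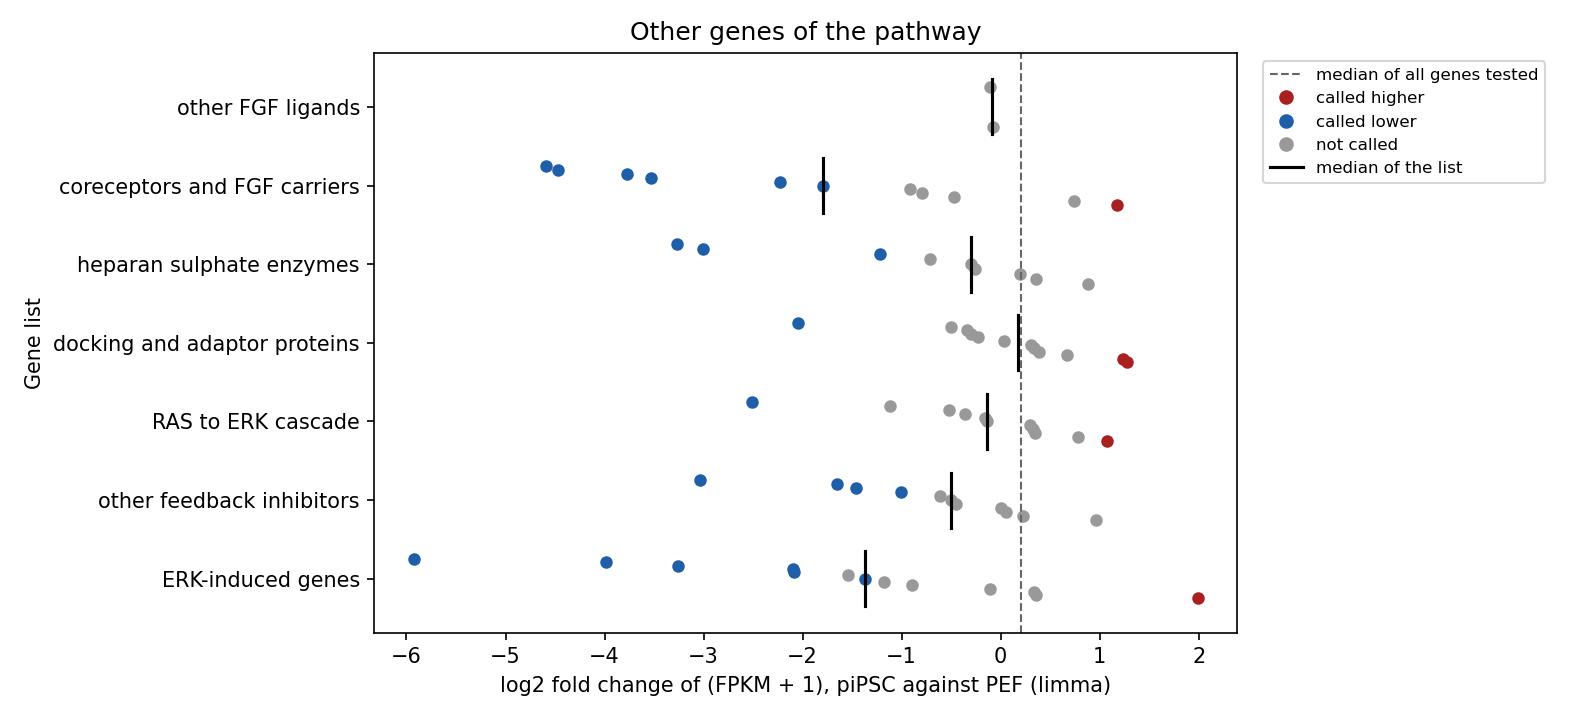
Log2 fold change of (FPKM + 1), piPSC against PEF, of the tested genes of each pathway list, 1 point per gene (red called higher, blue called lower, grey not called), with a black bar at the median of the list and a dashed line at the median of all 12428 genes tested (0.20). The median was −1.79 for the coreceptors and carriers (−0.91 with no filter on low values) and −1.37 for the ERK-induced genes (−0.87 without piPSC8).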

How the data were processed

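The authors deposited 1 table of FPKM values for 3 PEF and 3 piPSC libraries, and these deposited FPKM are the unit analysed here. The submitters' processing notes list HISAT2 2.1.0, Bowtie2 2.2.3, HTSeq 0.6.0 and the build Sscrofa11.1 without stating their roles; the annotation release and counting mode are not given in the sources used here. Whole fragments were recovered from the FPKM steps for 18007 genes (100%, tolerance 0.001 to 0.02 fragments). The smallest gene length that made all values of a gene whole was taken. A count is thus the lowest that fits and may be too low for genes with few fragments. Genes at 0 in every library were counted as recovered.

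Differences between piPSC and PEF were fitted with limma 3.58.1 in R 4.3.3 on log2(FPKM + 1), with an intensity trend and no covariate, over the 12428 genes whose mean FPKM reached 0.5. The two-sided p-values were adjusted by Benjamini-Hochberg over all genes tested, and a call required an adjusted p under 0.05 and a change of 2-fold or more. Fold changes are on the log2(FPKM + 1) scale, which understates changes of low genes. An exact permutation test of 3 against 3 libraries cannot go below 0.1, and none was used. The steps were tested on simulated data. Tables and figures were made with Python 3.11.15, numpy 2.4.6, pandas 2.3.3, scipy 1.17.1 and matplotlib 3.10.9.

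The members and lists were chosen with earlier results of these data known. All 10 members were named, and from each list the called genes with the 3 largest increases and the 3 largest decreases. For the tested member with the largest fold change in each role at a pseudocount of 1, the 2 nearest genes outside the set were named. Marker and Y-linked genes were named as checks of the labels. A named gene of the lists and a promoter sequence are not reported here. Of 3375 genes listed by identifier only, 875 were named from a table of 15623 gene names. Promoters came from RefSeq release 106 on Sscrofa11.1. Protein sequences were not used here.

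Alternatives were quantile normalization, a pseudocount of 0.1, no filter or a filter at a mean FPKM of 1, a replicate block for the line number, rescaling to the median ratio or to a sum of 1000000, no intensity trend, voom on recovered fragments, each library left out in turn, and both libraries of line 8 left out. Libraries of a line are paired, since the fibroblasts of a line were the source of the piPSC of its number. The deviations from the group means correlated across genes at r = 0.0921, 0.0946 and 0.08 in lines 5, 7 and 8, against −0.121 to 0.0553 between libraries of different lines.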

Additional observations from a re-analysis of the deposited data

Results flagged for a closer look

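The log2 ratio of (FPKM + 1), piPSC against PEF of the same line, had lines on both sides of 0 for 3 members. For FGFR4 the ratio was 1.41 in line 7 but −0.05 in line 5 and −0.03 in line 8. The values below 0 were within counting error, the FPKM in piPSC being 0.811 times that in PEF in line 5 (95% interval 0.368 to 1.73) and 0.786 times in line 8 (0.169 to 3.09). For SPRY1 the log2 ratio was −0.18 in line 7, also within counting error (0.825 times, 0.63 to 1.08), but 0.90 in line 5 and 2.13 in line 8. For SPRY2 it was 0.15 in line 5 (1.11 times, 1 to 1.23), at the edge of counting error, but −0.52 in line 7 and −1.14 in line 8. With 1 library of each group in a line, the difference between the lines was not tested.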

How the results depend on the processing

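No tested member changed direction under any of the 16 alternatives, and FGFR3 and SPRY4 were called in each of them. The number of members called higher, 1 in the fit described, was 0 with no filter on low values and with voom (limma; IL17RD had an adjusted p of 0.0685 and 0.0517), and ranged from 0 to 1 when each library was left out. At an unadjusted p under 0.05, 1 member was higher with no filter and 1 with voom, but 0 were without PEF8 and 0 without piPSC5. The number called lower, 4 in the fit described, was 2 with no filter and without both libraries of line 8, and ranged from 2 to 3 when each library was left out. With line as a replicate block it was 3, since the FGF2 call was lost (adjusted p = 0.0724), and the paired fit changed no other member's call. The pathway genes called higher were 3 in place of 5 after rescaling to the median ratio, and those called lower were 24 in place of 21. The number of all genes called ranged from 4049 to 4639 when each library was left out.

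The shares of the pools depended on gene length. On fragments in place of FPKM, the mean share of FGFR1 in PEF was 63.4% in place of 57.1%, and that of FGFR2 30.3% in place of 36.4%. The mean share of SPRY1 was 7.85% in PEF and 34.8% in piPSC in place of 2.80% and 12.2%. That of SPRY2 was 46.7% and 55.9% in place of 82.9% and 85.4%, and that of SPRY4 45.4% and 9.26% in place of 14.3% and 2.35%. The mean FPKM share in piPSC was 6.25% for SPRY1 without piPSC8, and 1.43% for SPRY4 without piPSC5.

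With 1 library per line, 3 lines per group and adjusted p-values of FGF2, FGFR2 and IL17RD between 0.0384 and 0.0492, these 3 calls lay near the threshold. FGFR4 and the PEF values of IL17RD rested on fewer than 20 fragments per library, apart from FGFR4 in piPSC7. Low counts also lay under the lower calls of FGFR3, with 14 fragments in piPSC7 and 18 in piPSC8, and of SPRY4, with 5 in piPSC8. The cause of the changes between settings was not tested.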

Other observations

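The intracellular FGF homologous factors FGF11 to FGF14, which bind ion channels rather than FGF receptors, were chosen after their values were seen. FGF11 stood at 10.3, 7.54 and 12.7 FPKM in PEF5, PEF7 and PEF8 and at 0.399, 1.20 and 0.338 FPKM in piPSC5, piPSC7 and piPSC8. The PEF libraries were all high, and FGF11 fell by 2.77 on the log2 scale (SE 0.29, limma adjusted p = 0.000768). FGF12 stood at 0.356, 0.836 and 1.85 FPKM in the PEF libraries and at 4.84, 9.96 and 0.519 FPKM in the piPSC libraries, so that lines 5 and 7 were higher and line 8 lower in piPSC (limma adjusted p = 0.182).

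FGF13 stood at 4.13, 1.58 and 1.25 FPKM in PEF5, PEF7 and PEF8 and at 2.11, 30.9 and 0.0903 FPKM in piPSC5, piPSC7 and piPSC8. piPSC7 was far above every other library, as it was for FGFR4, and FGF13 was not called (limma adjusted p = 0.673). FGF14 was at or under 0.234 FPKM in each library.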
